A study of Caenorhabditis elegans with 2 samples.

Results

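The aminoacyl-tRNA synthetase genes of Caenorhabditis elegans were examined for binding of the transcription factor SKN-1. Members were the protein-coding genes whose WBcel235 symbol is a single letter, the one-letter amino acid code, followed by ars- and the number 1 or 2. The rule found 31 of the 19973 nuclear protein-coding genes. Of these, 20 carried suffix 1, taken as cytosolic, and 11 carried suffix 2, taken as mitochondrial. All 20 amino acid letters had a suffix 1 gene and 11 of them also had a suffix 2 gene. Members lay on chromosomes I (9), II (4), III (6), IV (8) and V (4), and none on X.

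The data were chromatin immunoprecipitation with sequencing (ChIP-seq) of whole larvae at the third stage (L3), in 1 group of 2 biological replicates and with no second condition analysed here. Per the labels, the animals were of strain OP342, were mixed in sex and carried the mutation unc-119(ed3) and the transgene insertion wgIs342. The protein mapped was a fusion of SKN-1 with eGFP, a green fluorescent protein. Whole animals pool all tissues, so a peak does not show the cells in which it arose. The labels name neither the promoter that drives the fusion nor the state of the animals' own skn-1 gene.

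A synthetase joins an amino acid to its matching tRNA, and so supplies the ribosome with charged tRNA. Animal cells translate both in the cytosol and in mitochondria, and the enzymes for both compartments are encoded in the nucleus. SKN-1 is the worm relative of mammalian Nrf factors and is best known for activating detoxification and proteasome genes under stress.

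The peak lists used were all on build ce11, which is WBcel235. The list of 1778 peaks that passed the authors' IDR threshold (irreproducible discovery rate, which scores how far a peak keeps its rank from replicate to replicate) is called the IDR list. Its peaks were the same as the top 1778 of the 30000 pooled lines by signal value. The replicate 1 list had 22350 lines and the replicate 2 list 30000, and the deposited text describes the pooled and replicate lists as peaks together with background. The signal value is the authors' own score, with no unit stated in the deposited text, so values and ranks were read within a list only. Promoters reached 1000 bp upstream and 200 bp downstream of every annotated 5′ end, and a gene counted when a peak's summit lay there. In worms an annotated 5′ end is often a trans-splice site, and the start of transcription can lie further upstream. Read depth is not known from these lists.

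A promoter peak in the IDR list was found at 4 synthetase genes, ears-2, kars-1, fars-1 and mars-1. They make up 12.9% of the 31 members (Wilson 95% interval 5.13 to 28.9%, counting error only), and 7.75% of all protein-coding genes had such a peak. The members' interval includes the share over all genes. By class, 3 of 20 cytosolic genes (15%, 5.24 to 36.0%) and 1 of 11 mitochondrial genes (9.09%, 1.62 to 37.7%) had one, so the 2 intervals overlap over most of their length. Every other synthetase gene lacked a promoter summit among the 1778 strongest pooled lines.

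The sequences under 3 of these summits are shown because they hold, or do not hold, letters that SKN-1 is known to bind. They come from the RefSeq WBcel235 genome sequence and are written 5′ to 3′ on the minus strand, which is the strand of all 3 synthetase genes. The ears-2 stretch (chrIV:390469-390559) is the whole 91 bp between the 5′ ends of ears-2 and its neighbour. The kars-1 stretch (chrII:7073266-7073416) and the mars-1 stretch (chrIV:11635694-11635844) are the 151 bp centred on each summit. The known SKN-1 consensus is 2 letters that are each A or T, followed by TATCAT or TGTCAT, and its core is ATCAT or GTCAT. Both were searched on both strands. The fars-1 summit had neither within 100 bp. Capitals mark the core in ears-2 and the consensus in kars-1, each read on the opposite strand, and the mars-1 stretch holds neither.
ears-2: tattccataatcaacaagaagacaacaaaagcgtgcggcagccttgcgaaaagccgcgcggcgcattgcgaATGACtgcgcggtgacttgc
kars-1: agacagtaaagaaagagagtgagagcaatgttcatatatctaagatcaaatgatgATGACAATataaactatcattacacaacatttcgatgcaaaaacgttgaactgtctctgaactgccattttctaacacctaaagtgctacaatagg
mars-1: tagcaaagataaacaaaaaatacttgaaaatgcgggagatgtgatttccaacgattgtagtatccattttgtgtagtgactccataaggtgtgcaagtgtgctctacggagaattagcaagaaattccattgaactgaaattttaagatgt

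The strongest of the 4 peaks stood at ears-2, whose product RefSeq names as the nondiscriminating glutamyl-tRNA synthetase of mitochondria. This peak spanned chrIV:390351-390680, with its summit at 390516 between genes. Its signal value was 53.0 in the pooled list (rank 402), 18.0 in replicate 1 (rank 324) and 35.1 in replicate 2 (rank 532), so it stood among the strongest 1778 lines of both replicates. The replicate summits lay 7 and 9 bp from the pooled one, and no other summit lay in the ears-2 promoter in any list. The pooled summit was at −48 bp from the 5′ end of ears-2 and at −44 bp from that of uncp-18, where negative means upstream. The gene uncp-18 encodes a syntaxin-binding protein, a class that acts in vesicle fusion, and it starts on the opposite strand 92 bp away. In the replicate lists the summit lay at −41 and −39 bp from ears-2, which made ears-2 the nearer gene there, whereas uncp-18 was nearer in the pooled list. The 91 bp shown above are GC-rich, with 53.8% G or C, against 33.8% in the kars-1 stretch and 35.1% in the mars-1 stretch.

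The next peak was assigned to kars-1, the gene for lysyl-tRNA synthetase (chrII:7073176-7073505, summit 7073341, between genes). No kars-2 symbol exists among the members, and in humans the lysyl enzymes of both compartments come from the same gene. The signal value was 41.2 in the pooled list (rank 743), 12.4 in replicate 1 (rank 791) and 25.7 in replicate 2 (rank 1096). All 3 ranks lie within the strongest 1778 lines. The summit was far from the gene, at −926 bp from its 5′ end. It was nearer to kat-1, at −473 bp on the opposite strand, whose product RefSeq names as a mitochondrial acetyl-CoA acetyltransferase homolog. A second summit stood closer to kars-1, at −401 bp, with a pooled signal value of 16.4 (rank 4156). It was present in replicate 2 at −404 bp with a signal value of 17.0 (rank 2479), and replicate 1 had no summit there.

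The peaks of the other cytosolic genes, fars-1 and mars-1, had lower signal values and ranks than that of kars-1 in the pooled list and in replicate 1. In replicate 2 the fars-1 peak exceeded that of kars-1, and the mars-1 peak did not. The gene fars-1 encodes a phenylalanyl-tRNA synthetase subunit, and its peak lay on chromosome I at 6215399 to 6215728, with the summit at 6215564. The signal value was 40.2 in the pooled list (rank 779), 6.95 in replicate 1 (rank 2862) and 33.4 in replicate 2 (rank 595). The summit was at −879 bp from the outermost 5′ end of fars-1 and inside the 3′ UTR of T08B2.15. It was nearer to rbm-5, which encodes an RNA-binding protein, at −163 bp. For mars-1, the cytosolic methionyl enzyme gene, the peak (chrIV:11635604-11635933, summit 11635769, between genes) had a signal value of 34.4 in the pooled list (rank 1093), 5.55 in replicate 1 (rank 4617) and 21.3 in replicate 2 (rank 1600). Its summit was at −282 bp from mars-1. This was the only one of the 4 whose pooled summit had a synthetase 5′ end as the nearest, although F58B3.6 also held it in its window, at −879 bp.

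**Figure D1:**
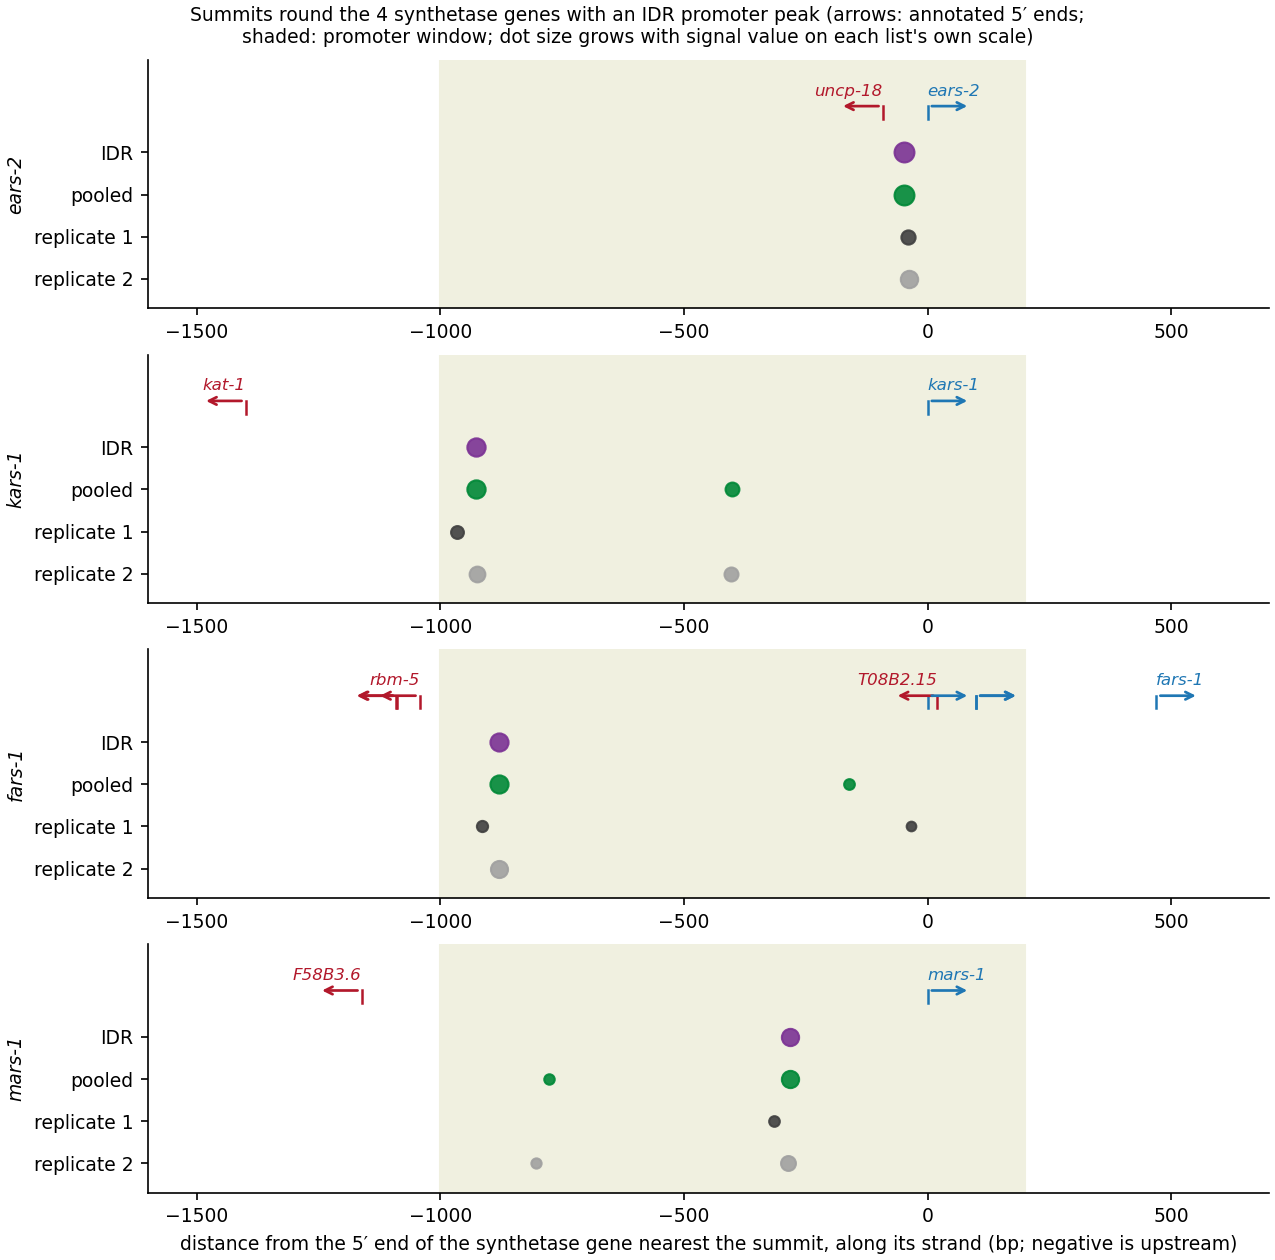
Positions of summits round the 4 synthetase genes with a promoter peak in the IDR list, as distance in bp from the 5′ end of the synthetase gene that lies nearest the summit (negative is upstream), with a row for each list. Arrows are annotated 5′ ends (blue for the synthetase, red for other genes), the shaded band is the promoter window of that 5′ end, and dot area grows with signal value within a list; the summit of ears-2 lies between 2 opposed 5′ ends 92 bp apart, and those of kars-1 and fars-1 lie near the far edge of the window at −926 and −879 bp.

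When a peak was given only to the gene with the nearest 5′ end, mars-1 was the 1 synthetase gene left with a promoter peak (3.23% of members, against 5.65% of all genes). It is 1 of the 20 cytosolic genes, and none of the 11 mitochondrial genes kept one. With a window from 500 bp upstream to 100 bp downstream, ears-2 and mars-1 had a peak (6.45% of members, against 6.26% of all genes). All 4 peaks also lay in the promoter window of another gene. These lists cannot show which of the genes, if either, a peak acts on.

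Below the threshold, the rest of the synthetase genes were described by their strongest promoter summit in the pooled list. The cytosolic genes nars-1, sars-1 and vars-1 came next, for the asparaginyl, seryl and valyl enzymes. In the pooled list they were at the highest q-value score given (3.78 as −log10 of q, the q-value ceiling), as were the 4 peaks above. The lowest line of the IDR list had a signal value of 26.9, mars-1 had 34.4, and nars-1, the highest member outside the list, had 23.7. With all summits at the ceiling counted, 7 of 31 members (22.6%, 11.4 to 39.8%) had one, against 12.2% of all genes. These were 6 of 20 cytosolic genes (30%, 14.5 to 51.9%) and 1 of 11 mitochondrial genes (9.09%, 1.62 to 37.7%).

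The nars-1 summit (chromosome I, 7090350, between genes) had a pooled rank of 2272 and lay at −288 bp. Replicate 2 held it at rank 1566 with a signal value of 21.5, and replicate 1 held no summit within 100 bp. The divergent gene nduf-6, for a subunit of respiratory complex I, had this summit at −390 bp. The sars-1 summit (chromosome IV, 10003546, between genes) had a pooled signal value of 23.0 (rank 2364) and lay at −180 bp. Replicate 2 held it at the same base with 19.5 (rank 1915), and replicate 1 held none within 100 bp. It was nearer, at −44 bp, to C47E12.2, which encodes an ADP/ATP translocase. The vars-1 summit (chromosome V, 8031365, between genes) had a pooled signal value of 20.2 (rank 2952) and lay at −46 bp, with no other gene's promoter holding it. It was matched in replicate 1 at 3.997 (rank 8909) and in replicate 2 at 11.0 (rank 5069). Of these 3, vars-1 alone was matched in both replicates.

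The strongest mitochondrial members after ears-2 were aars-2, nars-2 and yars-2, by suffix for the alanyl, asparaginyl and tyrosyl enzymes. The aars-2 summit (chromosome I, 3982923, between genes) had a signal value of 15.1 in the pooled list (rank 4791), 5.55 in replicate 1 (rank 4616) and 9.49 in replicate 2 (rank 6330), at −260 bp. It was outside the strongest 1778 lines in each of the 3 lists. The nars-2 summit (chromosome III, 11493160) lay in an intron of the gene at −348 bp from an internal 5′ end, with a pooled signal value of 10.04 (rank 9085) and 10.1 in replicate 2 (rank 5759). The yars-2 summit (chromosome IV, 4712621) lay in its 5′ UTR at 3 bp, with a pooled signal value of 9.97 (rank 9183) and 7.02 in replicate 2 (rank 9981). Replicate 1 had no summit within 100 bp of either of these.

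The suffix is not always the compartment. RefSeq names the product of aars-1 as the mitochondrial alanyl enzyme and that of aars-2 as the cytoplasmic one, opposite to the classes used here. Of the 31 products, 10 were named cytoplasmic, 4 mitochondrial and 17 had no compartment in their name. Exchanging the alanyl genes left the IDR counts at 3 of 20 and 1 of 11, and could not change them, since neither had a peak there. In the pooled list aars-2 had a promoter summit, matched in both replicates, and aars-1 had none. An exchange would therefore move the pooled and matched class counts given below, which keep the suffix classes.

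Over the whole pooled list, 22 of 31 members (71.0%, 53.4 to 83.9%) had at least 1 promoter summit, against 45.8% of all genes. The classes were alike in this, at 14 of 20 cytosolic genes (70%, 48.1 to 85.5%) and 8 of 11 mitochondrial genes (72.7%, 43.4 to 90.3%). Most of these summits were weak. The median best rank was 5394.5 over the 22 members and 7946 over the 9154 genes of all kinds with a summit. It was 4425 over 14 cytosolic members and 10581 over 8 mitochondrial members, with ranks from 743 to 15005 in the cytosolic class and from 402 to 21683 in the mitochondrial class. The ranges thus overlap, but at the strong end only through ears-2, which has the best rank of all. The best 3 ranks were 402, 4791 and 9085 in the mitochondrial class and 743, 779 and 1093 in the cytosolic class. Longer lists of alternative 5′ ends widen a gene's promoter window, and 17 of 31 members (54.8%) had more than 1 annotated 5′ end, against 26.3% of all genes. Among genes with more than 1, the pooled list held a promoter summit for 14 of 17 members (82.4%) and for 64.6% of all such genes. Among genes with a single 5′ end it did so for 8 of 14 members (57.1%) and for 39.1% of all such genes. In the IDR list the shares were 11.8% of members and 11.4% of all genes with more than 1, and 14.3% of members and 6.44% of all genes with a single 5′ end.

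**Figure D2:**
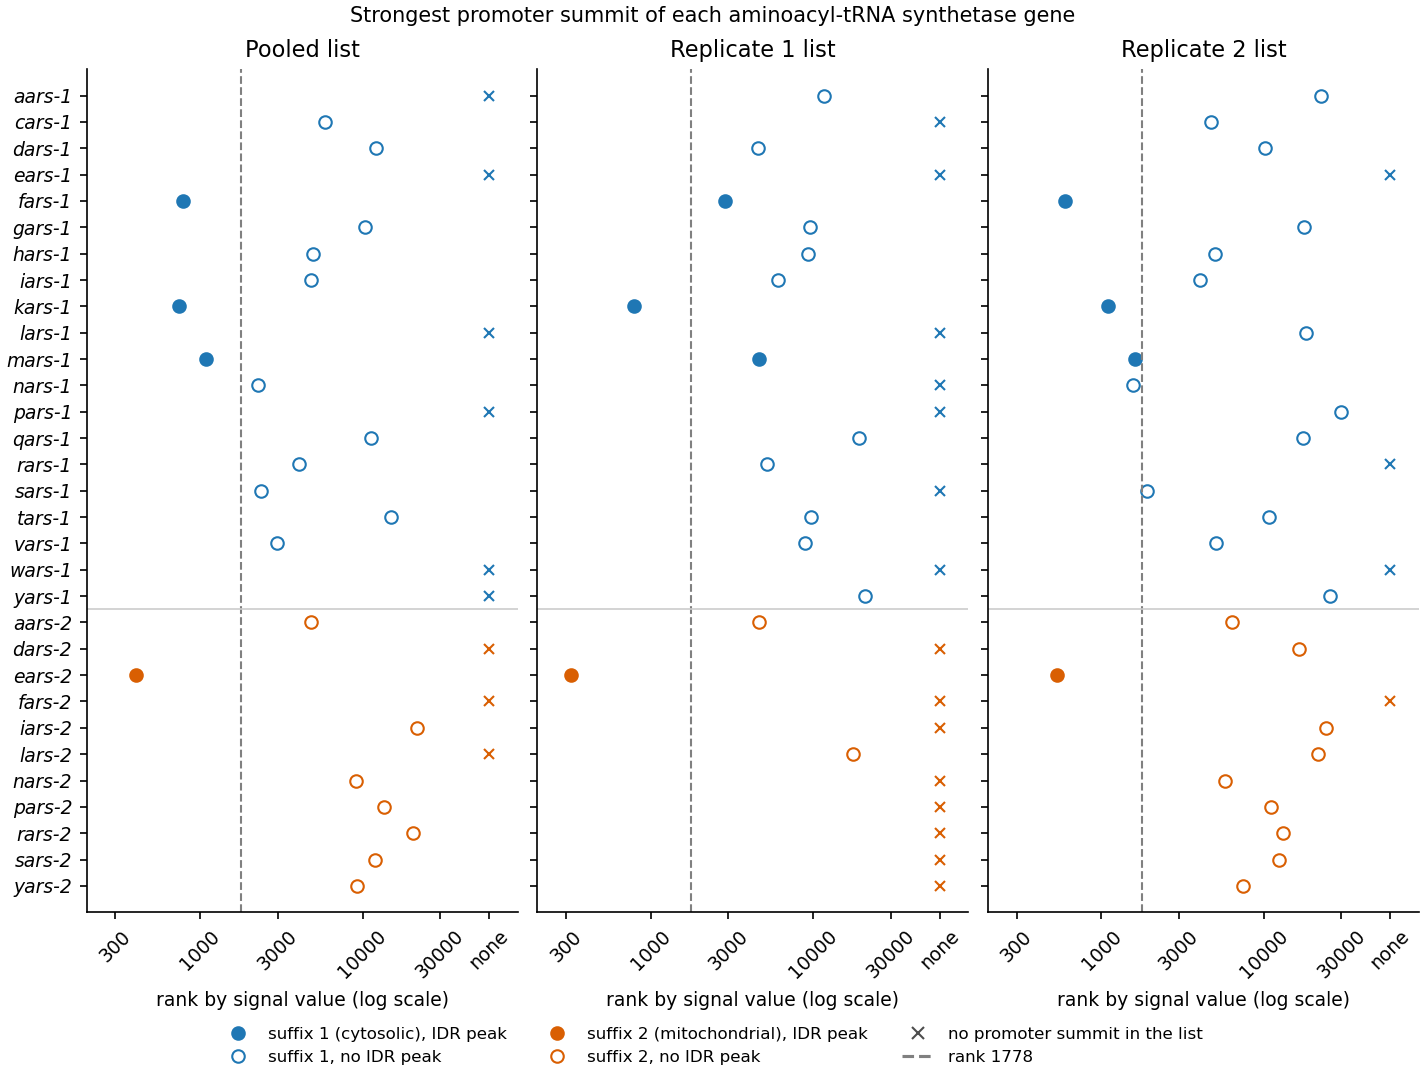
Rank by signal value (log scale, 1 is strongest) of the strongest promoter summit of each of the 31 synthetase genes in the pooled, replicate 1 and replicate 2 lists, cytosolic genes above mitochondrial genes. Filled circles are the 4 genes with a promoter peak in the IDR list, open circles the other genes, crosses mark genes with no promoter summit in that list, and the dashed line is rank 1778; in replicate 1 the crosses cover 8 of 11 mitochondrial genes and 7 of 20 cytosolic genes.

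In the replicate 1 list 16 of 31 members (51.6%, 34.8 to 68.0%) had a promoter summit, against 36.3% of all genes. They were 13 of 20 cytosolic genes (65%, 43.3 to 81.9%) and 3 of 11 mitochondrial genes (27.3%, 9.75 to 56.6%). In the replicate 2 list 27 of 31 members (87.1%, 71.1 to 94.9%) had one, against 45.4% of all genes. They were 17 of 20 cytosolic genes (85%, 64.0 to 94.8%) and 10 of 11 mitochondrial genes (90.9%, 62.3 to 98.4%). The 3 mitochondrial genes found in replicate 1 were ears-2, aars-2 and lars-2. A lower share of cytosolic than mitochondrial genes in replicate 2 stands beside a higher one in replicate 1, and the class intervals overlap in both replicates. The replicate 1 counts depend on the window. With a window reaching 2000 bp upstream, chosen for the classes after seeing the data, they were 14 of 20 cytosolic genes (70%) and 6 of 11 mitochondrial genes (54.5%), against 48.4% of all genes. A window from 500 bp upstream to 100 bp downstream, chosen likewise, gave 8 of 20 (40%) and 2 of 11 (18.2%). The share of all genes there was 26.0%. The lists differ in length, and the share of all genes was higher in replicate 2 as well.

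Among the 1778 strongest lines of each replicate, replicate 1 held promoter summits of 2 members (6.45%), ears-2 and kars-1, against 6.81% of all genes. Replicate 2 held those of 5 members (16.1%), against 7.67% of all genes, namely the 4 genes of the IDR list and nars-1. By class this was 1 of 20 cytosolic genes and 1 of 11 mitochondrial genes in replicate 1, and 4 of 20 and 1 of 11 in replicate 2. Only ears-2 and kars-1 were thus above this rank in both replicates.

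A promoter summit in both replicate lists, at any rank, was found for 15 members (48.4%, 32.0 to 65.2%), against 25.9% of all genes. These were 12 of 20 cytosolic and 3 of 11 mitochondrial genes. Another 12 members had one in replicate 2 only and rars-1, for an arginyl enzyme, in replicate 1 only. The rars-1 pooled summit lay at −952 bp, near the edge of the window, and replicate 2 had a summit within 100 bp of it that fell outside. Both replicates could hold summits at different places of the same promoter. A pooled promoter summit with a summit of each replicate within 100 bp was then required. This left 10 members (32.3%, 18.6 to 49.9%), against 16.3% of all genes. They were the cytosolic dars-1, fars-1, gars-1, hars-1, kars-1, mars-1, rars-1 and vars-1 (8 of 20) and the mitochondrial aars-2 and ears-2 (2 of 11). With a window from 500 bp upstream to 100 bp downstream, 5 members did so (16.1%), against 12.7% of all genes.

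**Figure D3:**
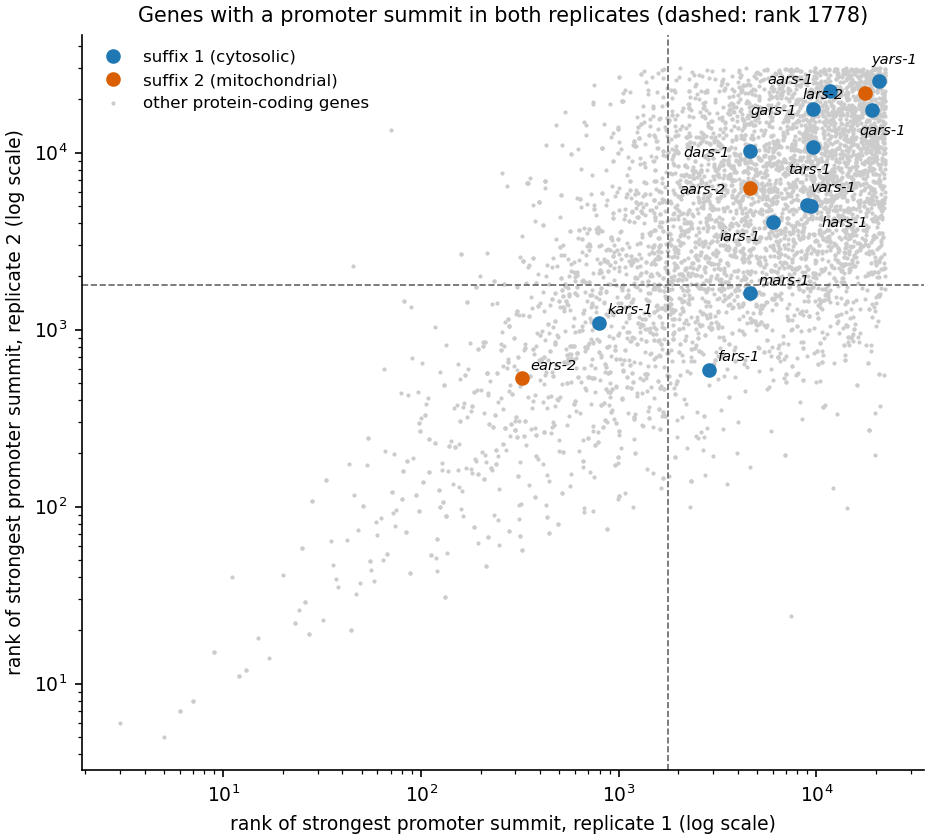
Rank of the strongest promoter summit in replicate 1 (x axis) and in replicate 2 (y axis), both on log scales with 1 the strongest, for the genes that had one in both lists: 15 synthetase genes, in blue for cytosolic and orange for mitochondrial, and other protein-coding genes in grey. Dashed lines mark rank 1778; ears-2 and kars-1 lie below both lines, fars-1 and mars-1 below that of replicate 2 only, and the other 11 synthetase genes beyond both.

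The remaining cytosolic genes with a pooled summit were weaker than vars-1. The arginyl gene rars-1 had a pooled signal value of 16.7 (rank 4056), the isoleucyl gene iars-1 15.1 (rank 4794) at −746 bp, and the histidyl gene hars-1 14.8 (rank 4923) at −136 bp. The hars-1 summit was found at the same base in replicate 2 (11.0, rank 5008) and 9 bp away in replicate 1 (3.89, rank 9343). The cysteinyl gene cars-1 had 13.3 (rank 5866) at −961 bp in the pooled list and 11.4 (rank 4742) in replicate 2, with none in replicate 1. The glycyl (gars-1), glutaminyl (qars-1), aspartyl (dars-1) and threonyl (tars-1) genes followed, with pooled ranks of 10340, 11250, 12136 and 15005. These 4 genes had summits in both replicates, with ranks of 4597 or more in replicate 1 and of 10207 or more in replicate 2.

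Pooled ranks were 11979 for sars-2, 13499 for pars-2, 20558 for rars-2 and 21683 for iars-2, the seryl, prolyl, arginyl and isoleucyl genes of the mitochondrial class. All 4 had a promoter summit in replicate 2, with ranks of 12318, 11098, 13088 and 24203, and none in replicate 1. In all 8 mitochondrial genes with a pooled summit the strongest one lay between −460 and 3 bp, with a median of −141 bp. In the 14 cytosolic genes it lay between −961 and −46 bp, with a median of −422.5 bp, and over all genes the median was −255 bp.

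The other 9 members had no pooled promoter summit. The cytosolic lars-1 and pars-1 and the mitochondrial dars-2 had only a weak summit in replicate 2, with ranks of 18208, 29850 and 16387. The cytosolic aars-1 and yars-1 and the mitochondrial lars-2 had 1 in each replicate list, with ranks of 11725, 20783 and 17635 in replicate 1 and of 22424, 25505 and 21694 in replicate 2. The cytosolic ears-1 and wars-1 and the mitochondrial fars-2 had no promoter summit in any list, which is 9.68% of members, against 40.8% of all genes. The glutamyl gene pair thus held both ends of the range, with ears-2 the strongest member and ears-1 among those without a summit. A peak of the pooled list and of the replicate 1 list did reach into the ears-1 window, with its summit outside.

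**Figure D4:**
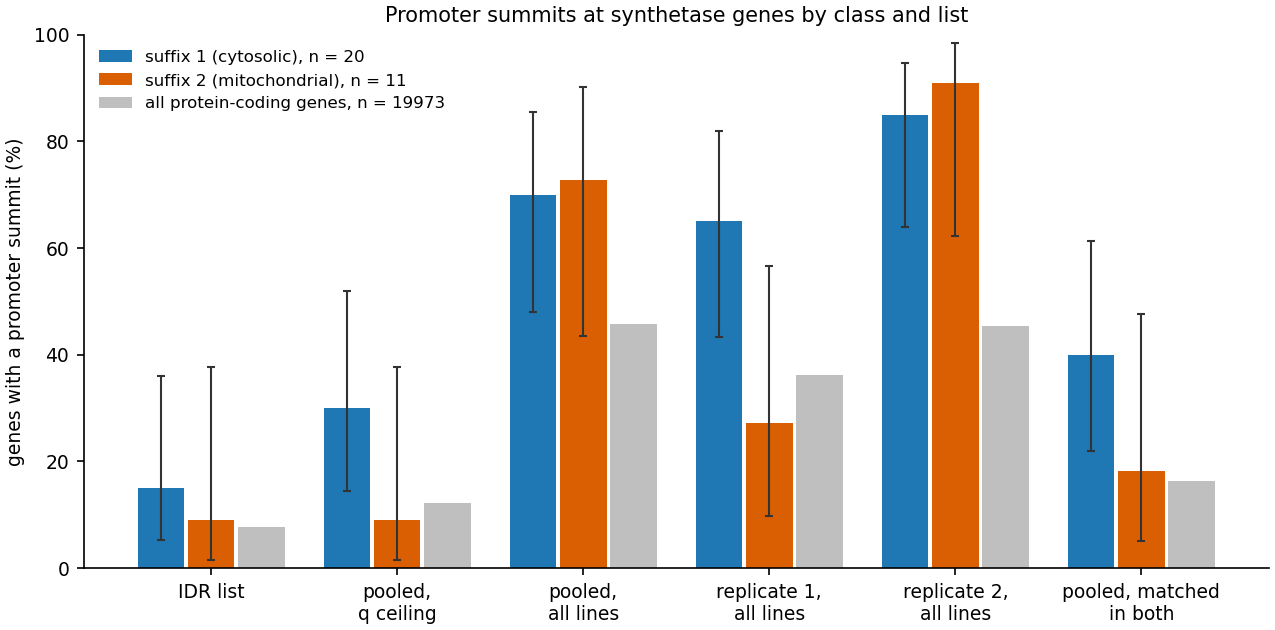
Share of genes with a promoter summit, in percent, for 20 cytosolic synthetase genes (blue), 11 mitochondrial synthetase genes (orange) and all 19973 protein-coding genes (grey), by list and call rule; error bars are Wilson 95% intervals and cover counting error only. The classes are close in the whole pooled list (70% and 72.7%) and the replicate 2 list (85% and 90.9%). They differ most in the replicate 1 list (65% and 27.3%). There a window reaching 2000 bp upstream gives 70% and 54.5%, and one from 500 bp upstream to 100 bp downstream 40% and 18.2%.

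Divergent neighbours were frequent. A gene on the opposite strand started within 1000 bp upstream of 12 of 31 members (38.7%), against 18.7% of all genes. Among these 12, ears-2 and fars-1 had an IDR promoter peak (16.7%), and so did 18.7% of all genes with such a neighbour. The neighbour counted for fars-1 was T08B2.15, 79 bp from an internal 5′ end, and the fars-1 summit lay in the promoter window of rbm-5 instead. Among the other 19 members, kars-1 and mars-1 had one (10.5%), against 5.22% of all genes without such a neighbour. Their summits did lie between opposed 5′ ends, since kat-1 and F58B3.6 started at −1399 and −1161 bp, beyond the 1000 bp. Among members without such a peak the closest neighbours were those of dars-1 (ctr-9, 181 bp away), sars-1 (C47E12.2, 224 bp) and ears-1 (ZC434.3, 265 bp). Of these 3, sars-1 alone had a summit at the q-value ceiling.

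The SKN-1 consensus had its centre within 50 bp of the summit in 1 of the 4 synthetase peaks, kars-1. The match reads ATTGTCAT on the plus strand (chrII:7073354-7073361) and its centre lay 16.5 bp from the summit. Over all 1171 IDR summits in promoters the share was 12.5%, over all 1778 IDR summits 12.4%, and over the 30000 pooled summits 6.63%. The core was found in 2 of the 4 peaks, kars-1 and ears-2, against 41.7% of all IDR summits. In the kars-1 stretch the core occurred 4 times, 1 of them inside the consensus match, and in the ears-2 stretch once, at −30 bp from the summit on the side of ears-2. Of the 6 summits described above for the next 3 genes of each class, none held the consensus within 50 bp. Within 100 bp 2 of them did (33.3%), those of aars-2 and yars-2, against 18.3% of all IDR summits. The wider promoter windows, 1000 bp upstream to 200 bp downstream, held the consensus somewhere in 18 of 31 members (58.1%), against 53.2% of all genes. That was 12 of 20 cytosolic and 6 of 11 mitochondrial genes. In windows of 250 bp upstream to 50 bp downstream it occurred in 10 of 31 members (32.3%), against 19.8% of all genes. Of the 4 genes with a peak, fars-1 and kars-1 held it in the wider window, and for fars-1 it was not within 100 bp of the summit.

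Some strong peaks lay at synthetase genes but outside their promoters. The tryptophanyl gene wars-1, which had no promoter summit in any list, held an IDR peak in an intron (chrV:18854798-18855127, summit 18854963), at 4258 bp downstream of its 5′ end. Its signal value of 56.6 (pooled rank 323) exceeded that of the ears-2 peak, and it was matched at rank 828 in replicate 1 and 425 in replicate 2. The gene fars-1 held a second IDR peak in an intron (chromosome I, summit 6212877), with a signal value of 38.3 (rank 851) and matched ranks of 814 and 942. That summit lay inside an annotated pseudogene and 53 bp from a small nucleolar RNA gene, T08B2.13, and in the promoter window of mrpl-23 at −992 bp. Within 200 bp of a tRNA, snoRNA, snRNA or rRNA gene lay 159 of the 1778 IDR summits (8.94%). The 4 promoter peaks of synthetase genes lay 2740 to 85380 bp from the nearest such gene. The mitochondrial isoleucyl gene iars-2 had an IDR summit at −1823 bp, beyond the window (chromosome I, 10178413), with a signal value of 51.7 (rank 433) and replicate ranks of 548 and 499. It lay in an intron of fath-1 and in the promoters of C25A1.16 and nola-3. Over the 27 members without an IDR promoter peak, the nearest IDR summit lay 1823 to 228826 bp from a 5′ end, with a median of 17946 bp, and 3 had one within 5000 bp.

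A list of 15 other genes was read as well. It holds elongation and initiation factor genes, genes for sensing uncharged tRNA, the transcription factor gene atf-4 and the synthetase subunit gene fars-3. It was chosen with earlier results of these data known, and its count was not recomputed with other windows or by nearest gene. Of the 15 genes, 8 (53.3%) had an IDR promoter peak, against 7.75% of all genes. All 5 listed genes of cytosolic elongation factor 1, which brings charged tRNA to the ribosome, were among them. Their pooled signal values were 85.6 for eef-1A.1, 67.7 for eef-1A.2, 66.3 for eef-1G, 59.8 for eef-1B.1 and 51.7 for eef-1B.2. The first 4 of these exceed the 53.0 of ears-2, the highest among the synthetase promoters. The mitochondrial elongation factor gene tufm-1 had 30.7 and the initiation factor gene eif-2gamma 33.6. The kinase gene gcn-2, whose product is known to sense uncharged tRNA, had 29.8, and these 3 are below the 34.4 of mars-1. No IDR promoter peak was found at fars-3 (the beta subunit of the phenylalanyl enzyme), tufm-2, tsfm-1, gcn-1, atf-4, eif-2alpha or eif-2beta.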

How the data were processed

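ChIP-seq peak lists of the 2 replicates, their pool and the IDR-thresholded set were used as deposited. Per the labels and the text deposited with the samples, the replicate lists came from each replicate's alignments and a control alignment, and the pooled list from both. For the aligner, the peak caller, its settings and the IDR threshold, nothing is stated in the labels. The deposited signal value is a score on the authors' scale. The deposited q-value is −log10 of q and reaches a ceiling in each list. The ce10 lists were not used here.

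Peak ends were checked against WBcel235 (highest ratio of end to chromosome length 0.99993). Summits were computed from the deposited offset, with coordinates 1-based. Genes and 5′ ends came from Ensembl release 115, product names and sequence from RefSeq, to which all 31 members were matched. Window counts and motif searches were written in Python 3.11.15 with pandas 2.3.3, numpy 2.4.6 and scipy 1.17.1, and tested on simulated summits and motifs. In full were described the members with an IDR promoter peak and, per class, the 3 others of highest pooled signal value; other genes were named only at those summits, in the pathway list, or, chosen after their values were seen, as divergent neighbours or at peaks outside promoters. No statistical test was run, since the series has a single group. Wilson intervals treat genes as independent, which genes sharing a summit are not. The members and lists were chosen with earlier results of these data known. Alternatives covered the window, the nearest gene, 5′ ends, threshold, replicates and motif distance.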

Additional observations from a re-analysis of the deposited data

How the results depend on the processing

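The count of 4 members with an IDR promoter peak was 2 (ears-2 and mars-1; 6.45%, against 6.26% of all genes) with a window from 500 bp upstream to 100 bp downstream. It was 1 when the nearest 5′ end alone counted (3.23%, against 5.65%). With all pooled summits at the q-value ceiling, chosen after seeing the data, it was 7 (22.6%, against 12.2%). To leave out a replicate, the 1778 strongest lines of the other were counted, as already given above, and no list was remade. That count was 2 for replicate 1 (6.45%, against 6.81%) and 5 for replicate 2 (16.1%, against 7.67%). For the cytosolic genes the count of 3 was 1, 1, 6 and 1 to 4 under the same changes. The mitochondrial count of 1 was 2 (18.2%) with a window reaching 2000 bp upstream, which adds iars-2. In that window the count over all members was 5 (16.1%), and the share of all genes was 10.1%. The mitochondrial count was 0 when the nearest 5′ end alone counted, and 1 when either replicate was left out. With the narrower window the replicate 1 count was 10 (32.3%, against 26.0% of all genes), in place of 16, and that of pooled summits matched in both replicates 5 (16.1%, against 12.7%), in place of 10. The strongest pooled signal value in that window was 16.4 for kars-1 and 5.65 for fars-1, since it leaves out their summits at −926 and −879 bp.

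The class counts of the longer lists were recomputed as alternatives chosen after seeing the data. The mitochondrial count in replicate 1 was 6 of 11 (54.5%, against 48.4% of all genes), in place of 3, with the window reaching 2000 bp upstream. The cytosolic count in replicate 1 was 8 of 20 (40%), in place of 13, with the narrower window and also with the nearest 5′ end alone. The shares of all genes there were 26.0% and 30.5%. With the nearest 5′ end alone the cytosolic count was 9 in the pooled list (45%, against 39% of all genes), in place of 14. In replicate 2 it was 11 (55%, against 38.7%), in place of 17. Cytosolic summits matched in both replicates numbered 3 in the narrower window (15%, against 12.7%), in place of 8. The other alternatives run for these lists, for the IDR counts and for the consensus kept each count within 1.5 times its main value. Some of these still moved the share of members towards that of all genes. With the nearest 5′ end alone, the pooled list held 15 of 31 members (48.4%, against 39% of all genes), in place of 22. Replicate 1 held 11 (35.5%, against 30.5%), in place of 16, and replicate 2 held 21 (67.7%, against 38.7%), in place of 27. No paired analysis was possible because the series has 1 group. Depth is unknown, so a missing summit does not show that the factor was absent.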

Other observations

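RefSeq product names give 5 further synthetase genes outside the symbol rule, and none had an IDR promoter peak, so the wider list held 4 of 36. The gene glp-4, for a valyl enzyme, had a pooled promoter summit with a signal value of 16.7 (rank 4044) at −444 bp, against 20.2 for vars-1, of the same amino acid. Y105E8A.20, which RefSeq calls mars-2 and names as the mitochondrial methionyl enzyme, had 9.47 (rank 10013) at −18 bp, against 34.4 for mars-1. The gene fars-3 had 4.26 (rank 29778) at −504 bp, near the end of the pooled list, against 40.2 for fars-1, the other subunit gene of the cytosolic phenylalanyl enzyme. K03B4.1, named as a seryl-tRNA synthetase, and prx-10, whose RefSeq entry includes a mitochondrial tryptophanyl product, had no pooled promoter summit.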
